A study of Homo sapiens with 12 samples.

Results

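The set described here comprised 34 genes of the endoplasmic reticulum (ER): the sensors of the unfolded protein response (UPR), the chaperones and folding enzymes of the ER lumen, and the machinery of ER-associated degradation (ERAD). They were chosen by symbol, as a pathway list, by a rule that used no measured value but was set with earlier results of these data known. Each symbol matched 1 Ensembl identifier, so the set was 34 of the 60617 gene identifiers counted in every library. All 34 passed the filter on low counts, which required a mean of at least 1 count per library and left 22756 genes for testing. By role the set held 3 sensors, 2 transcription factors and 7 proteins of the Hsp70 and Hsp90 chaperone system. It also held 2 small luminal stress proteins, 2 lectin chaperones, 7 enzymes of disulfide formation and prolyl isomerization and 8 ERAD factors. The rest were 2 subunits of the COPII coat and WFS1, a membrane glycoprotein of the ER linked to its calcium balance.

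The libraries were made from 12Z, an immortalized human epithelial line that originated from endometriosis tissue. All cells received non-targeting siRNA and were then transiently transfected with pBabe, either empty (control) or carrying PIK3CA*H1047R, an activating mutant of the catalytic subunit of phosphatidylinositide 3-kinase. After 4 h without serum, cells of each vector were given vehicle or 100 nM insulin in serum-free medium for 24 h before RNA was taken. This gave 4 groups of 3 libraries, named here by vector and treatment. The mutant was carried by a transfected vector in a single cell line, so the copies per cell and the share of cells that took it up were not fixed by the design.

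The UPR matches the folding capacity of the ER to its load of newly made secretory and membrane proteins. The sensor IRE1 (gene ERN1) removes an intron from XBP1 mRNA in the cytoplasm, which yields an active transcription factor. ATF6 travels to the Golgi, where proteases release its transcription factor domain, and PERK (gene EIF2AK3) phosphorylates the translation initiation factor eIF2 alpha. BiP (gene HSPA5) binds the luminal domains of the sensors and is itself a main target gene of ATF6. Misfolded proteins that cannot be rescued are trimmed of mannose, handed through a membrane channel to the cytosol, ubiquitinated and degraded, which is the ERAD route.

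Promoter sequences are shown first, because the ATF6 and XBP1 arms act through short DNA elements and the members can be described by whether they carry one. The ER stress response element (ERSE) is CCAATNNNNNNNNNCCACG, the related ERSE-II is ATTGGNCCACG, and the core of the UPR element bound by XBP1 is TGACGTGG. RefSeq windows from 250 bases before to 50 bases after a start site (GRCh38.p14) were searched on both strands for exact matches. Of the 34 members, 29 had at least 1 window, and PDIA3, FKBP14, DERL1, DERL3 and SEC24D had none. The ERSE matches of the members were, 5′ to 3′ on the strand of the element and with the fixed letters in capitals:
XBP1, chr22:28800603-28800621: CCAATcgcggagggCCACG
HSPA5, chr9:125241391-125241409: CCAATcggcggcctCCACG
HSP90B1, chr12:103930216-103930234: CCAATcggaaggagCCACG
HSP90B1, chr12:103930321-103930339: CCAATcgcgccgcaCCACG
CRELD2, chr22:49918554-49918572: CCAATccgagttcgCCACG
CALR, chr19:12938384-12938402: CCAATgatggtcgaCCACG
CANX, chr5:179698778-179698796: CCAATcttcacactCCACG
PDIA6, chr2:10812853-10812871: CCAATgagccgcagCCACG
ERO1B, chr1:236282183-236282201: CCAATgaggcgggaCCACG

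These sites lay in 8 of 29 members, among 25 of the 27305 genes with a window, which is 0.0916% of them. The ERSE-II matches of the members were, shown in the same way:
HYOU1, chr11:119057380-119057390: ATTGGaCCACG
HYOU1, chr11:119057274-119057284: ATTGGaCCACG
SDF2L1, chr22:21642114-21642124: ATTGGtCCACG
HERPUD1, chr16:56932025-56932035: ATTGGgCCACG

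They lay in 3 of 29 members and in 19 of all genes (0.0696%). Either element was present in 11 of 29 members against 0.161% of all genes. The UPR element core was found in HYOU1 alone among the members, where it shared bases with the farther of its ERSE-II sites, and in 0.927% of all genes. The shorter parts were common: CCACG stood in 23 of 29 members and 42.1% of all genes, and CCAAT in 26 of 29 members and 39.7% of all genes. A match describes letters only, and several of these genes served to define the elements.

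The full stretches upstream of 4 members are given next, read along the gene's strand and ending where the annotated gene begins, with the fixed letters of a match in capitals. These members held a match, and their insulin response differed between H1047R and control cells, as given below. EDEM1 and FKBP14 also differed and are not shown: EDEM1 held no match and FKBP14 had no window. A site on the opposite strand appears in a stretch as its reverse complement.
HSPA5, chr9:125241383-125241593, minus strand, 211 bases: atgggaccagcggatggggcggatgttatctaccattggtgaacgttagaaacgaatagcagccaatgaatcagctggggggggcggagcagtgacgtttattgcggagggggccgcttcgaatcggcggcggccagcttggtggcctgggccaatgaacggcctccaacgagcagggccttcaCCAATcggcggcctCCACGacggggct
XBP1, chr22:28800598-28800819, minus strand, 222 bases: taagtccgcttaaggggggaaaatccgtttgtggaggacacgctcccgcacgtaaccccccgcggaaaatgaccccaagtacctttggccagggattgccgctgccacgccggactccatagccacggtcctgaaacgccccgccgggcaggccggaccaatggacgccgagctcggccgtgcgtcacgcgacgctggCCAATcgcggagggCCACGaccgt
SDF2L1, chr22:21642052-21642301, plus strand, 250 bases: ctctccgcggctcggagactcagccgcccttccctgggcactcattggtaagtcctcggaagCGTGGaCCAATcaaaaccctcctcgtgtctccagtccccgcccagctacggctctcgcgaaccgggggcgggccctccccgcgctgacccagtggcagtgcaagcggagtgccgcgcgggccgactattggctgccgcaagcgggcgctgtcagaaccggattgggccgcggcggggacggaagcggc
CALR, chr19:12938359-12938577, plus strand, 219 bases: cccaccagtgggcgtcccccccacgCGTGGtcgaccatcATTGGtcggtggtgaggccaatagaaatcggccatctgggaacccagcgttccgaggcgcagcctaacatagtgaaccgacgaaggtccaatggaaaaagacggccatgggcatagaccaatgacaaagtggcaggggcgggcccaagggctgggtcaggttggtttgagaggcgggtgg

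The plot of motif positions places each match relative to the start site.

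**Figure D1:**
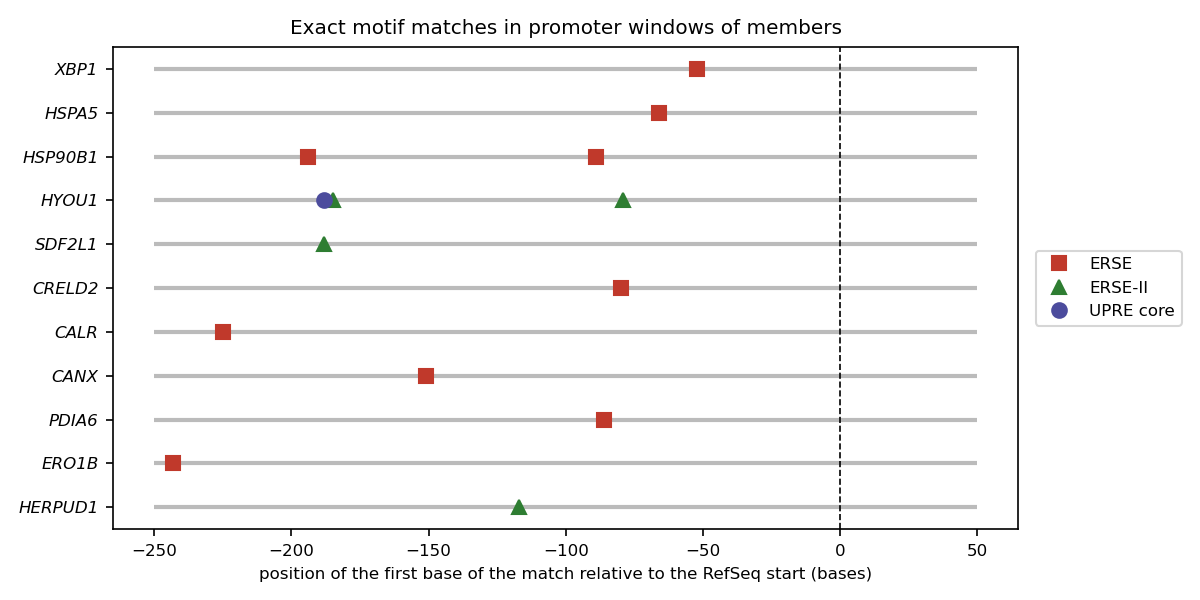
Exact matches to ERSE (squares), ERSE-II (triangles) and the UPR element core (circle) in the promoter windows of the 11 members that hold an ERSE or ERSE-II; the x axis is the position of the first matched base relative to the RefSeq start in bases and each grey line is a window of 300 bases. HSP90B1 and HYOU1 each hold a pair of sites, and the ERSE of XBP1 at -52 and of HSPA5 at -66 lie closest to the start.

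Each library held 21483124 to 37918025 reads assigned to genes, and the 3 H1047R insulin libraries were the deepest (30071951 to 37918025). PIK3CA, which counts reads of the gene and of the vector together, was at 88.2 to 89.0 CPM (reads per 1000000 of the library) in control vehicle, 80.9 to 85.9 in control insulin, 180.1 to 312 in H1047R vehicle and 714 to 734 in H1047R insulin, so the labels of the vector held. The vector signal was not equal between the H1047R groups, and in the contrast between them its level and insulin cannot be told apart. H1047R vehicle replicate 1 stood apart with the highest PIK3CA of its group. The members did not move together in it: XBP1, HSPA5, HSP90B1 and MANF were among those highest in this library. CALR, DNAJB9, ERO1B, SEL1L, DERL2 and SEC31A were lowest in it, and SDF2L1, EDEM1 and ERN1 were highest in replicate 3. The counts of genes called at the main threshold are given below with and without H1047R vehicle replicate 1 where they differ. Reads mapping to several sites were 8.48 to 9.51% in H1047R insulin and 13.6 to 15.4% in the other 9 libraries. Of 6 epithelial markers, 5 reached 1 CPM (EPCAM did not), with a summed level of 3270 to 3288 CPM in H1047R insulin and 2907 to 3246 elsewhere. All 6 stromal markers reached 1 CPM, and their sum was 2987 to 3123 CPM in H1047R insulin and 4949 to 5866 elsewhere. Of 3 endothelial markers, CDH5 and VWF reached 1 CPM and PECAM1 did not, with a sum of 4.92 to 5.23 CPM in H1047R insulin and 2.62 to 4.59 elsewhere. Of 3 leukocyte markers, CD14 reached 1 CPM, PTPRC did not and CD3E was at 0 in every library, and their sum was 4.67 to 4.73 CPM in H1047R insulin and 3.82 to 6.48 elsewhere. Epithelial, stromal and endothelial marker levels, vector signal, depth and the share of reads at several sites thus all moved with the H1047R insulin group, and their part in the results below was not tested. In bulk RNA, fewer cells of a kind and less RNA per cell cannot be told apart.

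All CPM values below are scaled by library size with the TMM factors of edgeR, and values of a group are listed in the order of replicates 1 to 3. Between genes, levels were compared per length, as TPM (a level per length, summing to 1000000 in each library) from the counts and the summed exon length of GENCODE v44. On this scale CALR was the most abundant member in every group, at 1844 ± 72.4 TPM in control vehicle and 2324 ± 35.6 TPM in H1047R insulin (SD, n = 3). The order behind it differed between groups. In control vehicle it was PDIA4 (544 ± 20.0), P4HB (506 ± 12.5), PDIA6 (453 ± 6.25), PPIB (378 ± 5.24), HSP90B1 (304 ± 1.12) and HSPA5 (266 ± 11.4). In H1047R insulin it was PDIA6 (534 ± 3.24), PDIA4 (530.0 ± 1.5), P4HB (492 ± 10.6), PPIB (454 ± 23.1), HSPA5 (439 ± 3.65) and HSP90B1 (385 ± 9.95), where PDIA6 and PDIA4, and likewise PPIB and HSPA5, differed by less than the sum of their SDs. The sensors were far below these, with ATF6 at 20.1 ± 1.55 TPM (SD over the 12 libraries), EIF2AK3 at 9.64 ± 0.397 and ERN1 at 5.82 ± 0.717. DERL3 was the scarcest at 0.73 ± 0.331 TPM, resting on 7 to 27 reads per library. The exon length is that of all annotated transcripts, so long unused exons lower a gene's TPM. Together the 34 genes took 0.819 ± 0.00837% of gene counts in control vehicle, 0.848 ± 0.00681% in control insulin, 0.831 ± 0.0111% in H1047R vehicle and 0.925 ± 0.0111% in H1047R insulin (SD, n = 3).

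Insulin in control cells addressed the response of cells with the empty vector. HSPA5 rose, and it was 1 of 34 members higher and 0 lower at a false discovery rate (FDR) below 0.001 in edgeR's quasi-likelihood test across all 22756 genes, beside 0.483% of all genes higher and 1.15% lower. Of the 7566 genes at the members' levels (21.1 to 536 CPM), 1.11% were higher and 2.63% lower. The median log2 fold change of the members was 0.05, against 0.00374 for all genes tested. Libraries of the groups did not overlap for 11 members in the higher direction and 1 in the lower, beside 10.3% and 9.92% of all genes. EDEM2 and FKBP14 narrowly missed the threshold, and WFS1 and DNAJC3 passed only an FDR of 0.05, where 4 members were higher and 1 lower (2.31% and 2.99% of all genes). DESeq2 called 2 higher (HSPA5, FKBP14) and 1 lower (EDEM2), as did the fit without H1047R vehicle replicate 1.

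Insulin in H1047R cells asked the same question with the mutant present. SDF2L1, XBP1 and HSPA5 rose most, followed by EDEM1, DNAJB9, MANF, DNAJC3, DNAJB11, CALR, SEC24D, HSP90B1 and PDIA3. These were 12 of 34 members higher and 0 lower, beside 9.85% of all genes higher and 9.8% lower. Among the 7566 genes with a mean of 21.1 to 536 CPM, the 10th to 90th percentile of the members' levels, 17.9% were higher and 19.9% lower. The median log2 fold change was 0.12 for the members and -0.000607 for all genes, and the libraries did not overlap for 18 members in the higher direction and 7 in the lower (22.7% and 22.2% of all genes). At an FDR of 0.05 the counts were 18 and 4 (17.3% and 17.0% of all genes), and without H1047R vehicle replicate 1 the count at 0.001 was 14 and 0.

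The mutant in vehicle was the contrast in which no member passed: 0 of 34 were higher or lower in edgeR, beside 0.141% of all genes higher and 0.0176% lower, and DESeq2 also called 0, as did edgeR with each library left out in turn. No member passed an FDR of 0.05 either, beside 0.624% and 0.589% of all genes. At an unadjusted p under 0.05 there were 4 members, XBP1, HSPA5 and HERPUD1 with positive and EDEM2 with negative changes, against 11.9% of all genes. XBP1 had the lowest adjusted p, 0.0605 in edgeR, with a log2 fold change of 0.20 ± 0.056 (SE), and its libraries overlapped those of control vehicle. Libraries did not overlap for HSPA5, HERPUD1, ERN1 and PPIB in the higher direction and EDEM2 in the lower, 4 and 1 members beside 7.55% and 6.83% of all genes. The median half-width of the 95% intervals was 0.09 on the log2 scale. Larger changes than that also went uncalled, such as 0.12 for HSPA5 and 0.15 for HERPUD1 (adjusted p 0.114 and 0.179, edgeR). Having no member called thus does not exclude changes of that size.

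The mutant under insulin compared the H1047R insulin and control insulin groups, and its 3 H1047R insulin libraries were those of the insulin contrast in H1047R cells. XBP1, SDF2L1, HSPA5, EDEM1, ERN1, DNAJB9, MANF, CALR and HSP90B1 were higher and FKBP14 and DERL1 were lower, 9 and 2 of 34 members beside 11.4% and 12.0% of all genes. That was 26.5% and 5.88% of the members, against 19.9% and 24.5% of the 7566 genes at the members' levels. The counts moved with the setting: 14 were higher and 1 lower with DESeq2's size factors in edgeR, with library totals only or with no filter on low counts, 16 and 1 with only the groups compared, and 15 and 2 with DESeq2. Without H1047R vehicle replicate 1, 15 were higher and 1 lower, and without control insulin replicate 3 the counts were 5 and 1. At an FDR of 0.05 the counts were 18 and 8 (18.5% and 20.0% of all genes). The members had a median log2 fold change of 0.13, against -0.02 for all genes.

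The difference between the insulin responses of H1047R and control cells (the interaction) passed for SDF2L1, XBP1, EDEM1, HSPA5 and CALR, whose response was greater in H1047R cells, and for FKBP14, whose response was lower. These were 5 and 1 of 34 members, beside 4.58% and 4.49% of all genes in the same directions. Of the 7566 genes at the members' levels, 9.21% and 9.53% passed. At an FDR of 0.05 there were 10 and 3 (10.4% and 10.9% of all genes). The median of the members was 0.09 on the log2 scale and that of all genes was -0.01. The count was also 5 and 1 without H1047R vehicle replicate 1. In total it was 1 without H1047R vehicle replicate 2, and 3 without control vehicle replicate 2, control insulin replicate 2, control insulin replicate 3 or H1047R insulin replicate 1. For the other 28 members a difference in response was not shown, and the intervals of the difference had half-widths of up to 0.276 for all but DERL3. Vector signal also differed between the H1047R groups, so its level and insulin cannot be told apart in this difference either.

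Across the 12 libraries, those of H1047R insulin lay above all 9 others for 17 members and below all 9 for 5 (PDIA4, P4HB, FKBP14, DERL1 and DERL2), beside 15.9% and 15.2% of all genes. In all, 15 members passed the threshold in at least 1 of the 4 comparisons between groups, and 19 passed in none. The plot of insulin effects gives every member in both kinds of cell.

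**Figure D2:**
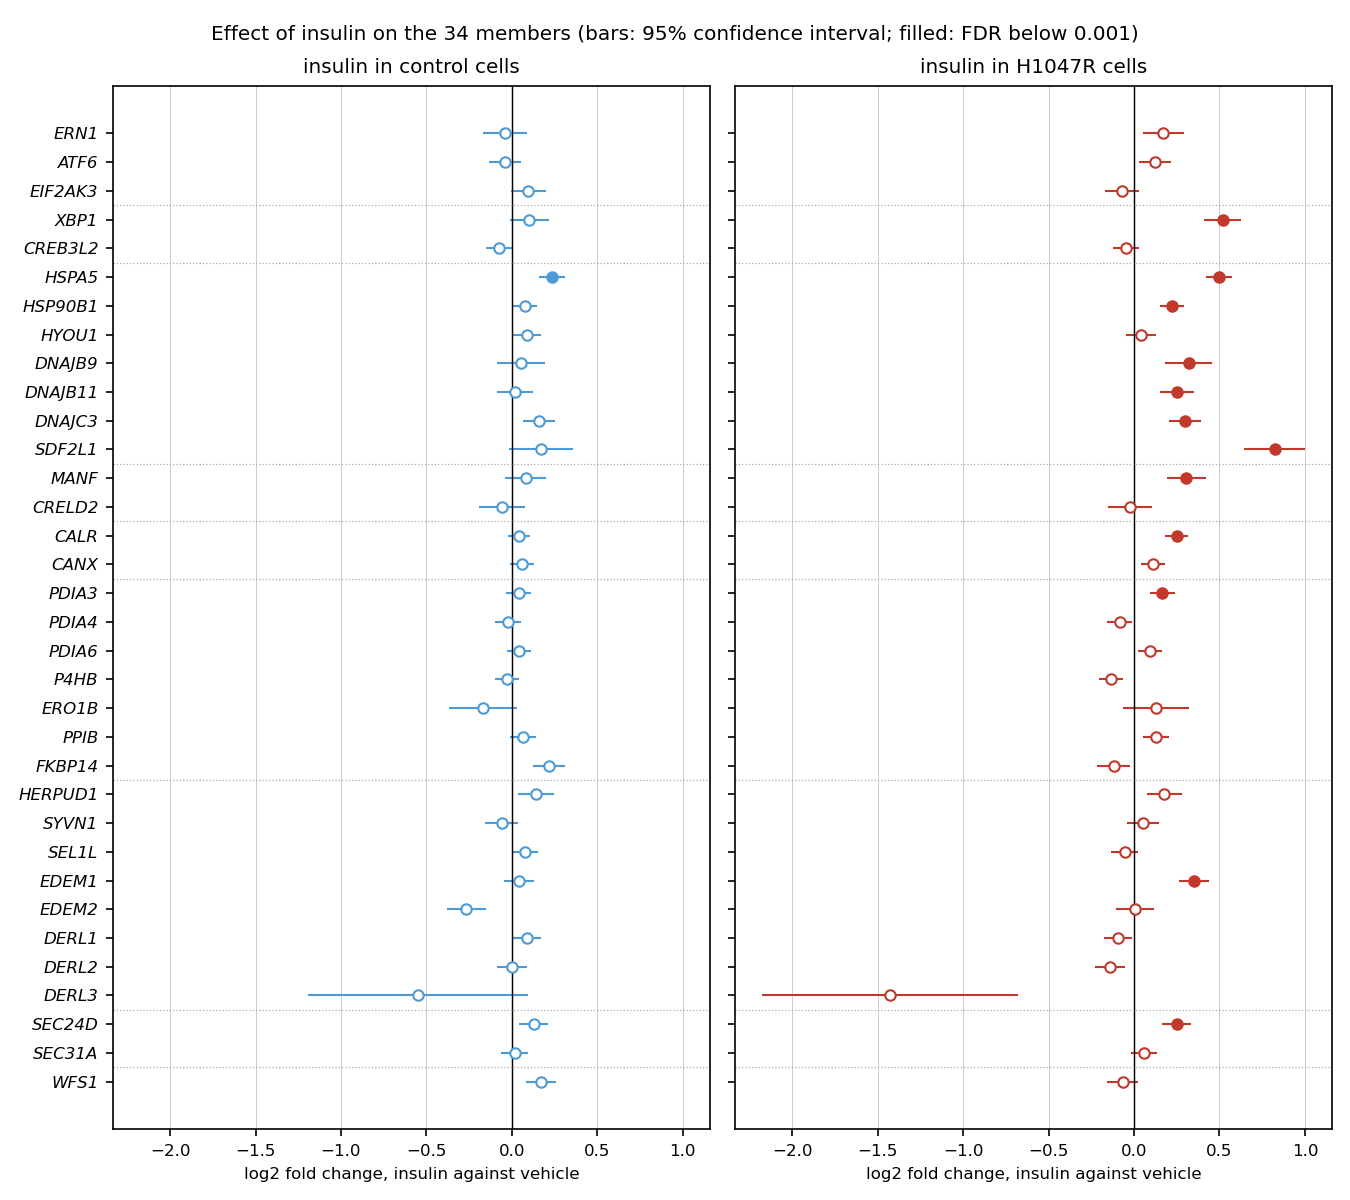
Log2 fold change of insulin against vehicle for the 34 members, ordered by role, in control cells (left) and H1047R cells (right); bars are 95% confidence intervals from edgeR and filled points passed an FDR of 0.001. HSPA5 is the 1 filled point on the left, and 12 points are filled on the right, with SDF2L1 the farthest at 0.82; DERL3 has the widest interval.

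None of the 3 sensors passed the threshold with insulin in either kind of cell. These are mRNA levels, and the activity of the sensor proteins was not measured. ERN1, which encodes IRE1, the kinase and endoribonuclease that splices XBP1 mRNA, was at 24.9, 24.7 and 22.7 CPM in control vehicle, 25.1, 23.1 and 22.3 in control insulin, 26.0, 25.4 and 26.1 in H1047R vehicle, and 29.8, 28.9 and 28.5 in H1047R insulin. The H1047R insulin libraries were above the other 9. ERN1 had log2 fold changes of -0.04 ± 0.063 with insulin in control cells (adjusted p 0.835, edgeR) and 0.17 ± 0.06 in H1047R cells (adjusted p 0.022). With the mutant in vehicle its change was 0.09 ± 0.063 (adjusted p 0.602, edgeR). The mutant under insulin was the 1 comparison in which it passed, at 0.31 ± 0.059 (adjusted p 4.57e-05), and without control insulin replicate 3 this became 0.27 with an adjusted p of 0.0011.

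ATF6, the membrane-bound factor activated in the Golgi, was at 64.3, 68.0 and 63.6 CPM in control vehicle, 64.8, 63.4 and 62.7 in control insulin, 66.5, 63.5 and 64.0 in H1047R vehicle and 72.8, 71.4 and 67.4 in H1047R insulin. Its log2 fold changes were -0.04 with insulin in control cells, 0.12 with insulin in H1047R cells, -0.01 with the mutant in vehicle and 0.15 with the mutant under insulin, with adjusted p of 0.773, 0.0327, 0.946 and 0.00844 in edgeR. It passed in the last comparison when only its 2 groups were fitted (0.18, adjusted p 0.000455) or without H1047R vehicle replicate 1 (0.18, adjusted p 0.000818). EIF2AK3, which encodes PERK, was the flattest of the sensors, with 43.8 to 49.0 CPM over the 12 libraries. Its log2 fold changes in these comparisons lay between -0.11 and 0.10, and none passed in edgeR (adjusted p 0.337, 0.327, 0.731 and 0.0791 in the same order). For the difference between insulin responses, ERN1 was at 0.21, ATF6 at 0.16 and EIF2AK3 at -0.16. None of these passed (adjusted p 0.0791, 0.0753 and 0.0967, edgeR).

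XBP1 (chr22:28794555-28800597, minus strand), the transcription factor downstream of IRE1, rose with insulin in H1047R cells. It was at 85.8, 91.4 and 103 CPM in control vehicle, 97.5, 98.1 and 105 in control insulin, 120.0, 102 and 99.4 in H1047R vehicle, and 154, 153 and 154 in H1047R insulin. The last group was far above every other library, and replicate 1 of H1047R vehicle was the highest of the remaining 9. The log2 fold change was 0.52 ± 0.054 with insulin in H1047R cells (1.43-fold, adjusted p 2.08e-10, edgeR) and 0.10 ± 0.056 in control cells (adjusted p 0.369). The difference between these responses was 0.42 ± 0.077 (adjusted p 6.9e-05), and it missed the threshold with DESeq2 (0.44, adjusted p 0.00321). With the mutant under insulin XBP1 was 1.53-fold higher, a log2 fold change of 0.62 ± 0.054 (adjusted p 1.51e-12). These counts cover all XBP1 mRNA and do not separate the spliced from the unspliced form. CREB3L2, a transmembrane factor of the same general type as ATF6, was at 236 to 265 CPM and passed in no comparison, with log2 fold changes of -0.07 to 0.09.

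In the Hsp70 and Hsp90 chaperone system, 6 of 7 members were higher with insulin in H1047R cells, and HYOU1 was the exception. HSPA5 (chr9:125234853-125241382, minus strand), the Hsp70 chaperone BiP, was at 394, 418 and 418 CPM in control vehicle, 477, 477 and 494 in control insulin, 475, 433 and 432 in H1047R vehicle and 635, 630.4 and 625 in H1047R insulin. Insulin libraries were above vehicle libraries in both kinds of cell, and no other member passed in control cells. HSPA5 rose 1.18-fold with insulin in control cells (log2 0.23 ± 0.038, adjusted p 3.69e-05, edgeR) and 1.41-fold in H1047R cells (log2 0.50 ± 0.038, adjusted p 5.27e-14). The responses differed by 0.26 ± 0.054 (adjusted p 0.000263), and under insulin the mutant group was 1.31-fold higher (log2 0.38 ± 0.038, adjusted p 3.77e-11). Without control vehicle replicate 1, the lowest library, the control response was 0.21 with an adjusted p of 0.00112. The difference between responses missed the threshold on leaving out any of 6 libraries (control vehicle replicate 2 or 3, control insulin replicate 2, H1047R vehicle replicate 2 or 3, or H1047R insulin replicate 1), with values of 0.24 to 0.26 and adjusted p of 0.0011 to 0.00186.

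SDF2L1 (chr22:21642302-21644299, plus strand), a partner of BiP and its J-domain proteins that limits aggregation of misfolded proteins, had the largest fold change among the members called with insulin. It was at 10.5, 10.4 and 9.66 CPM in control vehicle, 12.6, 12.0 and 9.82 in control insulin, 10.2, 8.30 and 10.4 in H1047R vehicle, and 17.2, 16.2 and 17.7 in H1047R insulin. Only the H1047R insulin libraries stood clear, since control insulin replicate 3 fell within the control vehicle range. With insulin SDF2L1 was 1.77-fold higher in H1047R cells (log2 0.82 ± 0.088, adjusted p 4.08e-10, edgeR), against 1.12-fold in control cells (0.17 ± 0.093, adjusted p 0.38). The difference of 0.65 ± 0.129 passed (adjusted p 0.000155) but became 0.56 (adjusted p 0.00117) without control insulin replicate 3 and 0.55 (adjusted p 0.00165) without H1047R vehicle replicate 2.

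HSP90B1, the Hsp90 chaperone GRP94, was at 956, 941 and 931 CPM in control vehicle, 982, 1011 and 991 in control insulin, 984, 927 and 940.4 in H1047R vehicle and 1138, 1106 and 1079.8 in H1047R insulin. It was 1.17-fold higher with insulin in H1047R cells (log2 0.22 ± 0.034, adjusted p 1.06e-06, edgeR). With insulin in control cells the log2 fold change was 0.08 ± 0.034 (adjusted p 0.219), although the libraries did not overlap. The 3 J-domain proteins, which stimulate the ATPase of BiP, rose by similar amounts with insulin in H1047R cells. DNAJB9 rose by 0.32 ± 0.067, DNAJC3 by 0.30 ± 0.046 and DNAJB11 by 0.25 ± 0.05 on the log2 scale, with adjusted p of 0.000165, 1.11e-06 and 7.83e-05. DNAJB9 lost its call without H1047R insulin replicate 1 or 3 (adjusted p 0.00125 and 0.0011), and DNAJB11 without H1047R insulin replicate 2 (0.0012).

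In control cells DNAJC3 was at 67.2, 66.7 and 61.9 CPM with vehicle and 72.1, 74.1 and 72.9 with insulin. Those libraries did not overlap, but the log2 fold change of 0.16 ± 0.047 passed only an FDR of 0.05 (adjusted p 0.0315, edgeR). HYOU1, a large Hsp70-type chaperone and nucleotide exchange factor for BiP, did not follow the others. It was at 120.3, 126 and 122 CPM in control vehicle, 123, 133 and 135 in control insulin, 128, 125 and 121 in H1047R vehicle and 132, 126 and 127 in H1047R insulin. Those ranges overlapped, and its insulin change in H1047R cells was 0.04 with a 95% interval of -0.04 to 0.13, below the interval of HSPA5 (0.42 to 0.57). HYOU1 carried both an ERSE-II pair and the UPR element core, and HSPA5 carried the ERSE shown above.

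Under insulin, the mutant group was also above the control group for 4 of these 7 members. Besides HSPA5, these were SDF2L1 (0.57 ± 0.084, adjusted p 4e-07, edgeR), DNAJB9 (0.29 ± 0.066, adjusted p 0.000454) and HSP90B1 (0.16 ± 0.034, adjusted p 0.00023). DNAJB9 lost this call on leaving out any of the 6 libraries of the groups compared (0.27 to 0.30, adjusted p 0.00159 to 0.00335). HSP90B1 lost it without control insulin replicate 1 or 3 or H1047R insulin replicate 1 or 2 (0.14 to 0.16, adjusted p 0.00122 to 0.00478). The plot of levels by group shows the main members of this and the other roles.

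**Figure D3:**
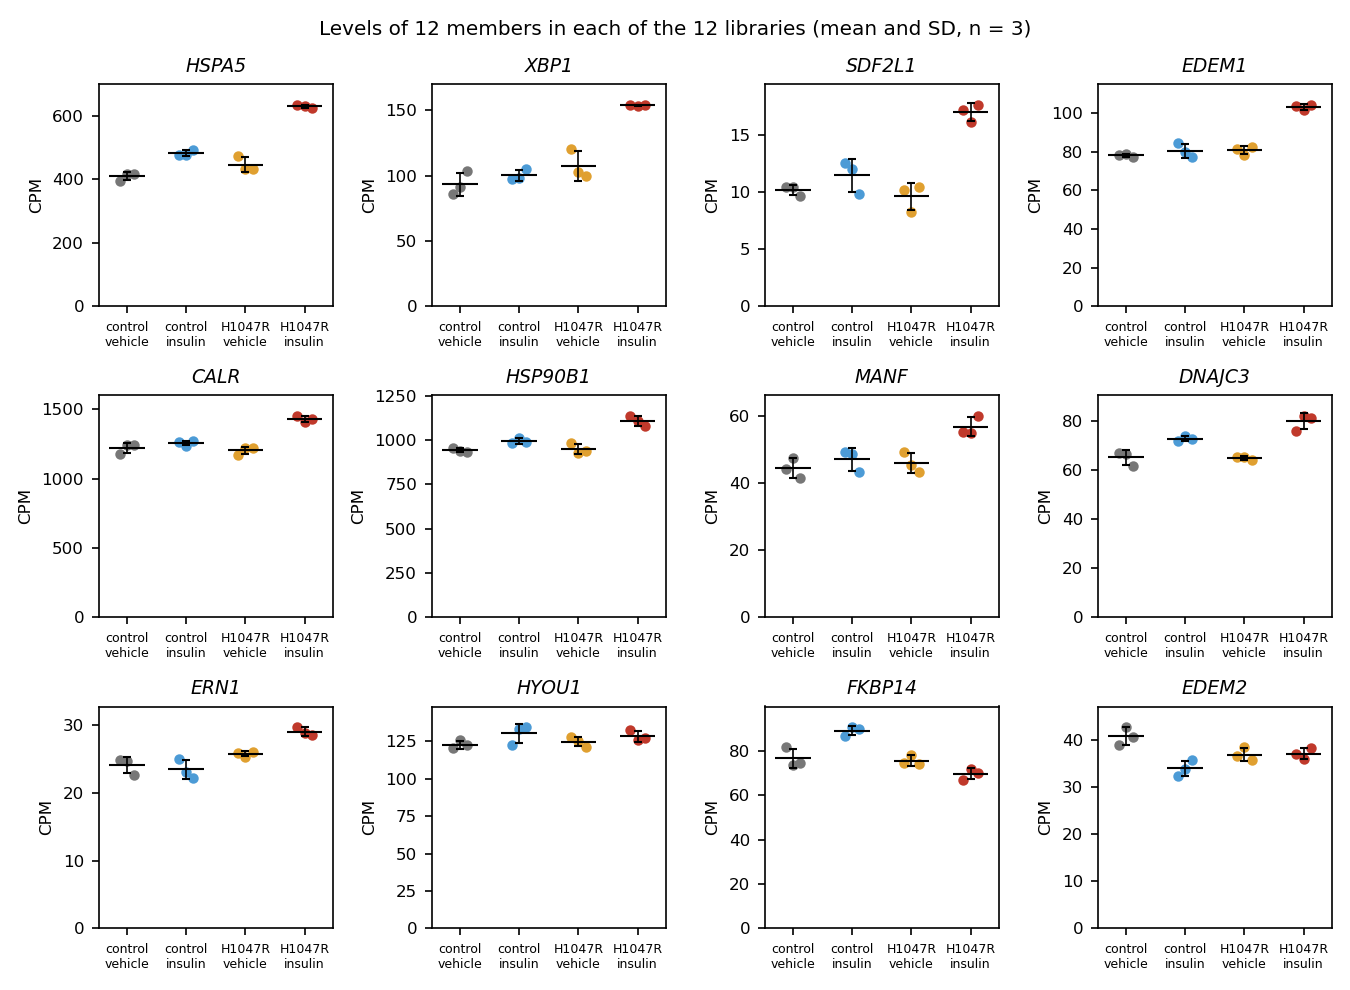
CPM of 12 members in each library by group (points), with the mean and SD of 3 libraries (lines); every y axis starts at 0. For HSPA5, XBP1, SDF2L1 and EDEM1 the 3 H1047R insulin points lie above all others, while the HYOU1 groups overlap, FKBP14 is lowest in H1047R insulin and EDEM2 is lowest in control insulin.

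Of the small luminal stress proteins, MANF passed with insulin in H1047R cells and CRELD2 did not. MANF, a secreted protein that binds BiP, was at 44.2, 47.3 and 41.4 CPM in control vehicle, 49.1, 48.5 and 43.2 in control insulin, 49.1, 45.4 and 43.2 in H1047R vehicle, and 55.2, 54.8 and 60.0 in H1047R insulin. The first 3 groups overlapped and the last was above them. MANF rose by 0.31 ± 0.057 with insulin in H1047R cells (adjusted p 2.92e-05, edgeR) and was 0.27 ± 0.056 higher with the mutant under insulin (adjusted p 0.000108). Without H1047R insulin replicate 3, its highest library, these were 0.26 (adjusted p 0.00112) and 0.23 (adjusted p 0.00341), and without control insulin replicate 3 the second was 0.22 (adjusted p 0.00381). CRELD2 stayed within 28.7 to 34.6 CPM in all libraries, and its insulin change in H1047R cells was -0.02 with a 95% interval of -0.15 to 0.11. Its promoter window held an ERSE, whereas that of MANF had no exact match to any of the 3 elements.

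CALR, the soluble lectin chaperone calreticulin, rose with insulin in H1047R cells. It was at 1179.9, 1242 and 1243 CPM in control vehicle, 1265, 1237 and 1271 in control insulin, 1173, 1218 and 1222 in H1047R vehicle, and 1455, 1407 and 1434 in H1047R insulin. Only the last group stood clear of the rest. The log2 fold change was 0.25 ± 0.033 in H1047R cells (adjusted p 6.13e-08, edgeR) and 0.04 ± 0.033 in control cells (adjusted p 0.61). The difference of 0.21 ± 0.047 had an adjusted p of 0.000849, close to the threshold, and missed it with unstranded counts (adjusted p 0.00126), with a stricter filter on low counts (0.00179), and without any of 10 of the libraries (0.20 to 0.22, adjusted p up to 0.00517). With the mutant under insulin CALR was 0.19 ± 0.033 higher (adjusted p 1.07e-05). CANX, its membrane-bound relative calnexin, had changes of 0.11 ± 0.035 with insulin in H1047R cells (adjusted p 0.0107) and 0.06 ± 0.035 with the mutant under insulin (adjusted p 0.15), and neither passed, although its H1047R insulin libraries (508 to 532 CPM) were above all others (466 to 500.3 CPM).

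Of the 7 enzymes of disulfide formation and prolyl isomerization, PDIA3 was higher with insulin in H1047R cells and the others did not pass in that contrast. PDIA3, the thiol oxidoreductase that works with calreticulin and calnexin, was at 538, 536 and 538 CPM in H1047R vehicle and 599, 594 and 614 in H1047R insulin. Its change of 0.16 ± 0.036 (adjusted p 0.000331, edgeR) lost the call without H1047R vehicle replicate 2 or 3 or any H1047R insulin library, with values of 0.15 to 0.17 and adjusted p of 0.00104 to 0.00472. The isomerases PDIA4 and P4HB leaned the other way: the H1047R insulin libraries were the lowest of the 12 for both, at 383 to 386 CPM for PDIA4 and 1176 to 1230.2 for P4HB. Their log2 fold changes with insulin in H1047R cells were -0.08 ± 0.037 and -0.14 ± 0.034, with adjusted p of 0.0728 and 0.00134 in edgeR, and P4HB was called lower by DESeq2. PDIA6 and PPIB, an isomerase of the same family and the prolyl isomerase cyclophilin B, had changes of 0.09 ± 0.035 and 0.13 ± 0.037 (adjusted p 0.0366 and 0.00594), and ERO1B, an oxidase that recharges the isomerases, was at 7.84 to 10.6 CPM with a change of 0.13 ± 0.095 (adjusted p 0.327).

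FKBP14, a prolyl isomerase that acts on collagen, was the 1 member with a lower insulin response in H1047R than in control cells by the test of the difference. It was at 81.7, 73.7 and 74.5 CPM in control vehicle, 86.7, 90.9 and 89.7 in control insulin, 74.3, 78.2 and 74.2 in H1047R vehicle, and 66.9, 71.8 and 70.1 in H1047R insulin. Control insulin was above all other libraries and H1047R insulin below them. With insulin it changed by 0.22 ± 0.047 in control cells (adjusted p 0.002, edgeR) and by -0.12 ± 0.047 in H1047R cells (adjusted p 0.0452), and neither passed. The difference of -0.34 ± 0.066 passed (adjusted p 0.000154), and the mutant group was lower under insulin, with a change of -0.36 ± 0.046 (adjusted p 2.79e-08). The difference missed the threshold without control vehicle, control insulin or H1047R vehicle replicate 2 or H1047R insulin replicate 1 (-0.31 to -0.32, adjusted p 0.001 to 0.00135). The summed stromal markers given above were lowest in the same 3 H1047R insulin libraries. In control insulin, where FKBP14 was highest, their sum was 5477 to 5866 CPM, against 5653 to 5716 in control vehicle. A link between these markers and FKBP14 was not tested.

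Among the 8 ERAD factors, EDEM1 was the 1 that rose with insulin in H1047R cells. EDEM1, a mannosidase-like protein that marks misfolded glycoproteins for disposal, was at 78.3, 78.6 and 77.4 CPM in control vehicle, 84.4, 79.6 and 77.2 in control insulin, 81.3, 78.4 and 82.2 in H1047R vehicle, and 103, 101 and 104 in H1047R insulin. The first 3 groups overlapped and the last was clear of them. Its change was 0.35 ± 0.043 in H1047R cells (1.28-fold, adjusted p 1.05e-08, edgeR) and 0.04 ± 0.044 in control cells (adjusted p 0.733), and the difference of 0.31 ± 0.062 passed (adjusted p 0.000172). EDEM1 was also 0.36 ± 0.043 higher with the mutant under insulin (adjusted p 5.05e-09). The difference between responses became 0.28 (adjusted p 0.0011) without control insulin replicate 3 and 0.29 (adjusted p 0.00123) without H1047R vehicle replicate 2. EDEM2, a mannosidase of the same family, had its lowest values in control insulin. It was at 38.9, 42.8 and 40.7 CPM in control vehicle and 32.3, 33.9 and 35.6 in control insulin, without overlap, and its change of -0.27 ± 0.056 just missed the threshold in edgeR (adjusted p 0.00141), while in H1047R cells it was 0.01 ± 0.055 (adjusted p 0.937).

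The remaining ERAD factors gave smaller values. HERPUD1, a membrane protein that gathers the ubiquitin ligase complex and holds an ERSE-II, was at 44.4 to 48.1 CPM in control vehicle and 57.6 to 58.7 in H1047R insulin, the highest group, but its insulin change in H1047R cells was 0.18 ± 0.05 (adjusted p 0.0038, edgeR). SYVN1, the ubiquitin ligase HRD1, and SEL1L, its scaffold, had changes of 0.05 ± 0.047 and -0.05 ± 0.039 in that contrast, and neither passed. For the derlins, which form part of the membrane channel, DERL1 and DERL2 were lowest in H1047R insulin (129 to 133 and 91.9 to 92.5 CPM). DERL1 was called lower with the mutant under insulin (-0.17 ± 0.04, adjusted p 0.000551), and it missed the threshold with DESeq2's size factors in edgeR (-0.15, adjusted p 0.00252), with library totals (-0.13, adjusted p 0.00682), with no filter (-0.14, adjusted p 0.00604), with only the groups compared (-0.14, adjusted p 0.0018), and on leaving out any of the 3 control insulin or 3 H1047R insulin libraries or H1047R vehicle replicate 1 (-0.14 to -0.18, adjusted p 0.0014 to 0.0055). DERL3 had 8, 14 and 7 reads in H1047R insulin against 16, 21 and 18 in H1047R vehicle, and its change of -1.43 ± 0.37 did not pass (adjusted p 0.00192).

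Of the COPII subunits, which coat vesicles leaving the ER, SEC24D, the cargo adaptor, rose with insulin in H1047R cells from 168, 159 and 159 CPM to 199, 190.0 and 189, a change of 0.25 ± 0.041 (adjusted p 4.18e-06, edgeR). In control cells SEC24D went from 154, 153 and 167 to 176, 172 and 169.6 CPM, without overlap but short of the threshold (0.13 ± 0.042, adjusted p 0.0645). SEC31A, of the outer coat, was at 249 to 284 CPM and changed by 0.06 ± 0.038 with insulin in H1047R cells (adjusted p 0.267). WFS1 was at 89.7, 87.7 and 92.7 CPM in control vehicle and 100.3, 102 and 102 in control insulin, without overlap, a change of 0.17 ± 0.044 that did not pass (adjusted p 0.0117). In H1047R cells the WFS1 change was -0.07 ± 0.044, and the difference of -0.24 ± 0.062 did not pass (adjusted p 0.00367).

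**Figure D4:**
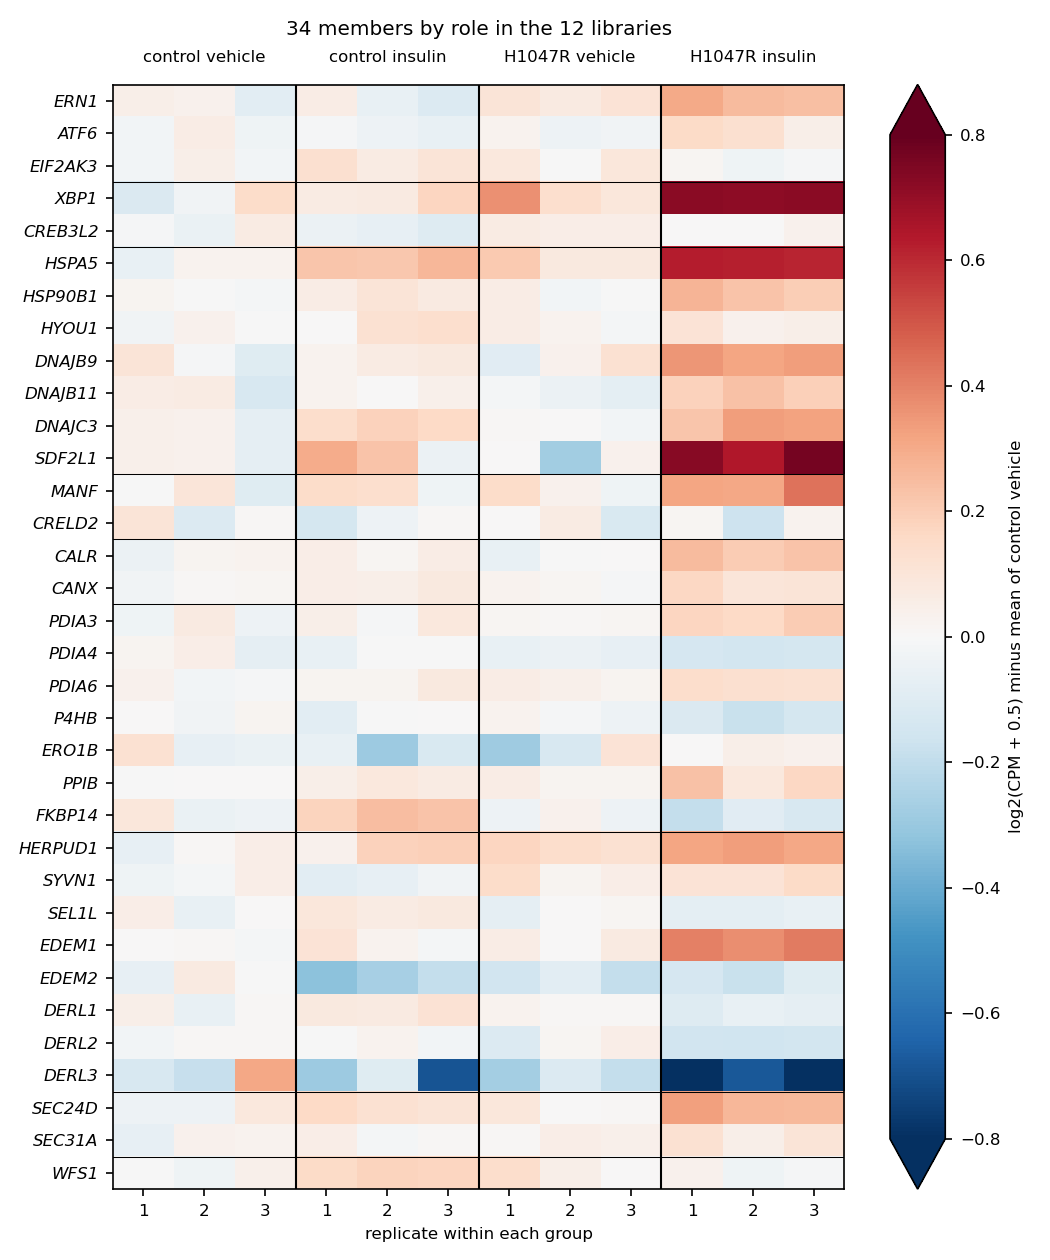
The 34 members by role (rows) in the 12 libraries (columns, replicates 1 to 3 of each group); color is log2 of CPM plus 0.5 minus the mean of the 3 control vehicle libraries, limited to 0.8 in either direction. XBP1, HSPA5, SDF2L1 and EDEM1 are above 0 in the 3 H1047R insulin columns, where DERL3 is the farthest below 0 and FKBP14, P4HB and PDIA4 are also below it.

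Members with and without a promoter element were found on both sides of the threshold. Of the 29 members with a window, 10 were higher with insulin in H1047R cells, and 5 of these held an ERSE or ERSE-II. Of the 19 not called, 6 held one. XBP1, HSPA5, HSP90B1, SDF2L1 and CALR were in the first group, and HYOU1, CRELD2, CANX, PDIA6, ERO1B and HERPUD1 in the second. EDEM1, DNAJB9, MANF, DNAJB11 and DNAJC3 rose and had no exact match. This is a count over the members, with no test.

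The replicate spread of the members was small, which bears on the size of change that could be called. Leaving out DERL3, the coefficient of variation of CPM had a median over 33 members of 3.82% in control vehicle, 2.18% in control insulin, 2.49% in H1047R vehicle and 2.06% in H1047R insulin. It was highest for XBP1 in control vehicle (9.47%), SDF2L1 in control insulin (12.7%), ERO1B in H1047R vehicle (14.8%) and CRELD2 in H1047R insulin (7.34%). The 18 members other than DERL3 that passed in no comparison between groups had log2 fold changes of -0.27 to 0.17 with insulin in control cells, -0.14 to 0.18 with insulin in H1047R cells, -0.15 to 0.15 with the mutant in vehicle and -0.17 to 0.20 with the mutant under insulin.

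Genes of the same pathways outside the set were counted in 5 lists. The PERK-ATF4 arm, 14 genes that respond when eIF2 alpha is phosphorylated, held 13 genes higher and 1 lower with insulin in H1047R cells, with a median log2 fold change of 1.00. In that contrast 9.85% of all genes were higher and 9.8% lower. ATF3, a stress-induced transcription factor, rose by 2.09 ± 0.11 (adjusted p 4.19e-19, edgeR), CHAC1, an enzyme that degrades glutathione, by 1.95 ± 0.096 (adjusted p 8.14e-20) and ASNS, asparagine synthetase, by 1.33 ± 0.21 (adjusted p 1.37e-06), while NUPR1 fell by 0.79 ± 0.07. ATF3 was at 7.52 to 15.2 CPM in H1047R vehicle and 43.5 to 45.1 in H1047R insulin, without overlap. In control cells 3 of the 14 were higher (CHAC1 by 0.93, VLDLR by 0.29 and XPOT by 0.22), a count that was 1 without control vehicle replicate 1, and 4 higher and 1 lower without H1047R vehicle replicate 1. Of all genes, 0.483% were higher and 1.15% lower with insulin in control cells. With the mutant in vehicle 3 were higher in edgeR (ATF3 by 1.11, CHAC1 by 0.92 and SLC3A2 by 0.49), beside 0.141% of all genes, and DESeq2 called CHAC1 alone. In all 3 genes H1047R vehicle replicate 1 was the highest of its group, at 15.2 CPM against 7.52 and 8.66 for ATF3, 8.63 against 5.69 and 5.55 for CHAC1, and 139.8 against 107 and 105 for SLC3A2. Without it the changes were 0.74 (adjusted p 1.86e-05), 0.68 (adjusted p 0.00205) and 0.34 (adjusted p 2.1e-06) in that order, and CHAC1 no longer passed. With the mutant under insulin 12 were higher and 1 lower (13 and 1 without H1047R vehicle replicate 1), and 8 and 1 passed for the difference between insulin responses. Of all genes, 11.4% and 12.0% passed with the mutant under insulin, and 4.58% and 4.49% for the difference. EIF2AK3, the sensor of this arm, passed in no comparison, and the activity of PERK was not measured. Whether PERK or another input moved the genes of this list was not tested.

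The other lists moved both ways with insulin in H1047R cells. In that contrast 9.85% of all genes were higher and 9.8% lower, and 17.9% and 19.9% of the 7566 genes at the members' levels. Of 28 other ER folding genes, TXNDC11 was higher (0.32) and 5 were lower, among them FKBP9 (-0.43), another prolyl isomerase of the ER, and GANAB (-0.39), the glucosidase that trims glycans for the lectin chaperones. The 23 other ERAD genes split into 4 higher and 4 lower (17.4% each), with NGLY1 (0.40), the peptide N-glycanase, highest, and RNF5 (-0.35) and OS9 (-0.32), a lectin of the HRD1 complex, lowest. Of 14 other COPII genes, 4 were higher, including SEC24A (0.43) and SAR1A (0.37), the GTPase that starts coat assembly, and SEC23A was lower (-0.20). Of 18 genes that process the sensors or act with them, 2 were higher and 6 lower, and of those called CREB3L4 (-0.68), NFYB (-0.39), a subunit of the CCAAT-binding factor, and MBTPS1 (-0.36), a protease that cleaves ATF6, were the farthest from 0. MAP3K5, a kinase of the IRE1 stress pathway named here after its value was seen, was at 0.72 ± 0.178 and did not pass (adjusted p 0.00129). Without H1047R vehicle replicate 1 these 4 lists gave 2 higher and 5 lower, 6 and 5, 4 and 1, and 4 and 5, in the order given. The COPII count fell from 5 to 3 without H1047R vehicle replicate 2 or 3 or H1047R insulin replicate 3. In control cells these 4 lists held 1 called gene, beside 0.483% of all genes higher and 1.15% lower. It was PRKCSH of ER folding, with a change of -0.19, which missed the threshold on leaving out replicate 1 of either control group, replicate 3 of control vehicle or replicate 2 of control insulin. The plot of list shares sets the lists beside all genes.

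**Figure D5:**
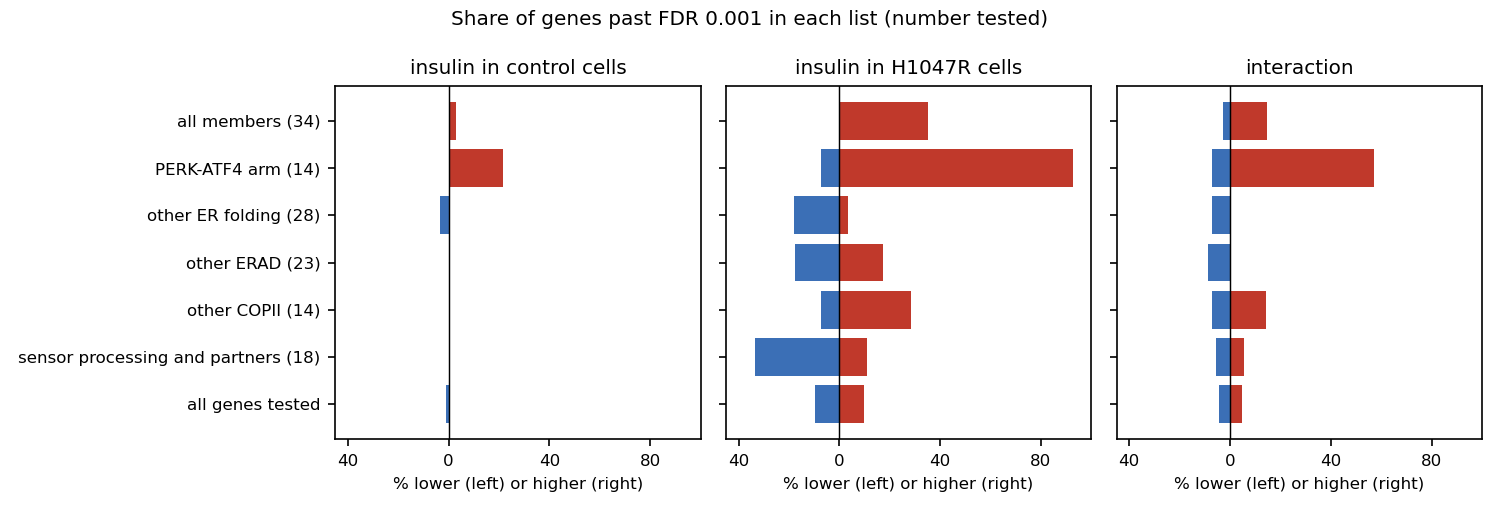
Share of genes past an FDR of 0.001 in each list and in all genes tested, for the insulin response of control cells, that of H1047R cells and their difference; bars run right for higher and left for lower, in percent of the genes tested (number in parentheses). With insulin in H1047R cells 92.9% of the PERK-ATF4 arm and 35.3% of the 34 members were higher, against 9.85% of all genes. Of the 7566 genes at the members' levels, which are not plotted, 17.9% were higher in that contrast.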

How the data were processed

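RNA-seq of 12Z cells was deposited as per-library tables of gene counts, 3 libraries for each of 4 groups, which the study's methods describe as independent experiments. The authors trimmed paired reads with cutadapt and Trim Galore, checked them with FastQC and aligned them to hg38 with STAR, whose gene counting wrote the deposited counts (unstranded, forward and reverse). The methods name a mouse GENCODE release beside hg38; for the human release and the tool versions the sources used here give no value. Reads at several sites are not in these counts. Following the study, the reverse-strand column was taken; it held 93.5 to 93.7% of strand-specific counts. The summary lines of each table were left out of library sizes. Symbols came from an Ensembl name table, which matched 60357 of 60617 identifiers.

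Testing used edgeR 4.0.16 in R 4.3.3 on genes with a mean of 1 count or more per library: TMM scaling, all 12 libraries in 1 quasi-likelihood fit with a coefficient per group, 8 residual degrees of freedom, Benjamini-Hochberg adjustment over 22756 genes and an FDR of 0.001, the study's threshold. Values are mean ± SD for levels and log2 fold change ± SE for effects. Alternatives were DESeq2 1.42.0, other scaling, other filters, unstranded counts, the replicate number as a block, only the groups compared, an FDR of 0.05 and each library left out. Every member called was named, with the sensors in every comparison and up to 3 called genes of a pathway list averaging at least 1 CPM. The fit was tested on simulated counts. Replicates differed by more than counting noise (chi-square per degree of freedom 2.70 to 5.90), so no pair was treated as repeat deposits of 1 library. Pseudogenes of HSPA5, HSP90B1 and XBP1 had at most 14 counts, and PDIA3P1 125 to 247. Members, lists and motifs were chosen with earlier results of these data known. Promoter windows came from RefSeq (GRCh38.p14), and exon lengths and gene positions from GENCODE v44, which may differ from the authors' annotation.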

Additional observations from a re-analysis of the deposited data

Results flagged for a closer look

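The insulin response differed between H1047R and control cells, by the interaction term of the edgeR fit at an FDR of 0.001, for 6 of the 34 members. Vector signal also differed between the H1047R vehicle and insulin groups, so its level and insulin cannot be told apart here. The response in H1047R cells exceeded that in control cells on the log2 scale by 0.65 for SDF2L1 (0.82 against 0.17), by 0.42 for XBP1 (0.52 against 0.10), by 0.31 for EDEM1 (0.35 against 0.04), by 0.26 for HSPA5 (0.50 against 0.23) and by 0.21 for CALR (0.25 against 0.04). For FKBP14 the difference was -0.34 (-0.12 against 0.22). In all 6 genes the 3 H1047R insulin libraries lay outside the range of the other 9, above it for the first 5 and below it for FKBP14. The 6 were picked by a test on these same libraries, so this is not separate support. Of the 34 members, 17 lay above and 5 below, beside 15.9% and 15.2% of all genes.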

How the results depend on the processing

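With insulin in control cells the count of 1 member became 2 with DESeq2's size factors or only the groups compared, 3 with no filter or with DESeq2, and 5 at an FDR of 0.05. The count with insulin in H1047R cells was 22 at an FDR of 0.05. With the mutant under insulin the 11 members became 17 with only the groups compared or with DESeq2, and 26 at an FDR of 0.05, and the difference between responses gave 13 at that FDR in place of 6. Leaving out 1 library at a time gave 1 to 3 members with insulin in control cells (3 without H1047R vehicle replicate 1), 9 to 14 with insulin in H1047R cells, 0 to 0 with the mutant in vehicle, 6 to 16 with the mutant under insulin (6 without control insulin replicate 3) and 1 to 6 for the difference. Among the pathway lists, the PERK-ATF4 arm with the mutant in vehicle went from 3 to 1 with DESeq2, and the other ERAD list went from 2 to 0 for the difference with DESeq2's size factors. In leave-one-out fits of the pathway lists, chosen after seeing the data, the counts that moved by over 1.5 times were those of the PERK-ATF4 arm with insulin in control cells (1 to 5), of other ER folding in control cells (0 to 1) and with the mutant under insulin (4 to 8, highest without control insulin replicate 1), of other COPII with insulin in H1047R cells (3 to 5) and with the mutant under insulin (3 to 7), and, for the difference, of other ERAD (0 to 4) and sensor processing (1 to 4). The first and the last 3 of these were highest without H1047R vehicle replicate 1. Libraries with the same replicate number did not deviate together (correlations of -0.058 to 0.087, none of 18 over 0.1), so the numbers were not taken as pairs. With the replicate number as a block the members called were 1, 12, 0, 11 and 5 over the 5 comparisons, CALR lost its call for the difference (adjusted p 0.00114, edgeR) and the other ERAD list went to 1. Single values were recomputed in each comparison for the members called in it and for the 3 sensors. The 1 reversed direction among them was ATF6 with the mutant in vehicle, -0.01 with all libraries and -0.039 to 0.016 with 1 left out (highest without control vehicle replicate 2). Of these 871 values, 806 kept direction and side of the threshold, 62 fell short of it, 2 newly passed and 1 reversed. Members not called, other than the sensors, were left out of this tally. Several of them passed under other settings, such as HERPUD1 and SYVN1 with the mutant under insulin by DESeq2. Other scalings moved the median of all genes by at most 0.0366 on the log2 scale. The cause of these changes was not tested. With 3 libraries per group, the members' 95% intervals had a median half-width of about 0.09 (log2) in comparisons between groups. For the difference between responses it was 0.125. Smaller changes were not resolved for most members. Larger ones also went uncalled, such as 0.20 for XBP1 with the mutant in vehicle and -0.27 for EDEM2 with insulin in control cells.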
